A study of Mus musculus with 2 samples.

Results

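The 4 chemokine genes Ccl2, Ccl7, Ccl8 and Ccl12 and the receptor gene Ccr2 were followed across the immune cells of mouse gliomas. These 5 genes were taken by symbol from the 31053 genes of the count matrices, and each has 1 row in both. Tumors were started in the brains of male C57BL/6 mice, 8 to 12 weeks old, from 100000 cells each of GL261, a mouse glioma line. The WT mice had the wild type genotype at the CD169-DTR allele. The CD169-DTR mice were heterozygous for it, with the diphtheria toxin receptor placed into 1 copy of Siglec1, the gene for CD169, so that the toxin can act on any cell type that uses this promoter. Both groups received diphtheria toxin (DT) at 40 ng/g on the day before tumor injection (1 day) and 4 days after it. At 10 dpi the tumor-bearing hemispheres of 3 mice per group were pooled, live CD45.2+ cells were sorted, and 1 droplet library was made per group, so the spread between mice is unknown and no test between the groups was possible.

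These genes belong to a system that moves monocytes from blood into tissue. CCL2 and CCL7 are ligands of CCR2, the receptor that Ly6C-high monocytes need to leave the bone marrow and to enter inflamed tissue. CCL12 is a rodent CCR2 ligand with no direct human counterpart. Mouse CCL8 is placed in the same family by sequence, but is known mainly as a ligand of CCR8, and CCL7 also binds other CC receptors. In the brain, microglia, infiltrating macrophages, astrocytes and endothelium are known to make CCL2 after injury, whereas resting microglia lack CCR2. NK cells, some dendritic cells and subsets of T cells carry CCR2 as well.

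In the genome build of the files (mm10), all 4 ligand genes lie on the plus strand of chromosome 11, within 81.2 kb. Ccl2 (ENSMUSG00000035385) spans 82035571 to 82037453 and overlaps the annotated gene Gm17268. Ccl7 (ENSMUSG00000035373) spans 82045712 to 82047525, Ccl12 (ENSMUSG00000035352) 82101845 to 82103400 and Ccl8 (ENSMUSG00000009185) 82115185 to 82116799. Ccr2 (ENSMUSG00000049103) lies on the plus strand of chromosome 9, from 124101950 to 124113557. Ccl12 and Ccl8 start within the same stretch of the cluster, with 11.8 kb between them, yet most Ccl12 UMIs came from microglia and most WT Ccl8 UMIs from macrophages, so the 250 bases before their start sites are shown here with those of the receptor (RefSeq, GRCm38.p6, plus strand). The RefSeq start of Ccr2 lies inside the gene span given above, which is that of the GENCODE annotation. Promoter entries were at hand for 3 of the 5 genes. Capitals mark TATAAA, the core of a TATA box.
Ccl12, chr11:82101595-82101844: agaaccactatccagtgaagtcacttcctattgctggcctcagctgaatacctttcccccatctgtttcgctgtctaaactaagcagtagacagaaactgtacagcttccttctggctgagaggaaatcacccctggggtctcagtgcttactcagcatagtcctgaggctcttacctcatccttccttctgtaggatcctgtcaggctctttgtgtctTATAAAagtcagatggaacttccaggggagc
Ccl8, chr11:82114935-82115184: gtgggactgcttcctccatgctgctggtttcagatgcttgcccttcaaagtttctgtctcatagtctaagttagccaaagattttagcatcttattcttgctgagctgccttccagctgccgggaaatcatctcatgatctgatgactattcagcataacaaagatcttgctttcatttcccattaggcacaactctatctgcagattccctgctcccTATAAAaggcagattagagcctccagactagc
Ccr2, chr9:124101933-124102182: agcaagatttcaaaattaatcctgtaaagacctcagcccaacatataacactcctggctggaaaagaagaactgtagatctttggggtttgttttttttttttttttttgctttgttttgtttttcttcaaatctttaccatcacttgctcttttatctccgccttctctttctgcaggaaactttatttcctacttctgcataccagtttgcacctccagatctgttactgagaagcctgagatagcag
TATAAA ended 26 bases before the start of Ccl12 and 27 bases before the start of Ccl8. It was not found in the Ccr2 window, and 12.4% of 32851 promoter windows of this length held it on either strand. A core NF-kB motif (in 1.41% of all windows), an interferon-stimulated response element (2.98%), and the letters TGANTCA (AP-1, 6.75%) and TTCNNNGAA (gamma-activated site, 7.02%) were searched on both strands and were not in these 3 windows, which says nothing of the factors that bind there or elsewhere.

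After filtering, the WT library held 10107 cells with a median of 7776 UMIs and the CD169-DTR library 7604 cells with a median of 8099.5. Cells were clustered without any chemokine or chemokine receptor gene, and clusters were named from marker genes, so that "microglia" stands for microglia-like cells, and likewise for the other classes. Microglia numbered 4801 in the WT and 5449 in the CD169-DTR library, and macrophages 2271 and 726. Migratory DC (135 against 14), pDC (101 against 11) and cDC1 (187 against 31) came mostly from the WT library, and 21 barcodes were kept in both libraries. Siglec1, the gene that carries the DTR allele, stood at 37.8 UMIs per 1000000 UMIs of the class (CPM) in WT macrophages (95% interval 35.0 to 40.7) and at 12.1 CPM (10.0 to 14.5) in CD169-DTR macrophages, with 19.0 against 5.60 CPM in microglia. Levels below are CPM of all UMIs summed over a class in 1 library. Their 95% intervals are exact Poisson intervals, those of ratios are exact conditional and those of shares exact Clopper-Pearson, and all cover counting error only.

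Ccl2 was a product of microglia and macrophages alike. In macrophages its level was 1061 CPM (1046 to 1076) in the WT and 796 CPM (778 to 814) in the CD169-DTR library. In microglia it was 828 CPM (819 to 836) and 759 CPM (752 to 767). The macrophage level was thus the higher in each library, without overlap of the intervals, by 0.36 (WT) and 0.07 (CD169-DTR) on the log2 scale. Since microglia were the more numerous, they held 59.5% of the Ccl2 UMIs of WT cells and 80.6% of those of CD169-DTR cells, and macrophages held 32.7% and 15.6%. The highest WT level was that of the 26 mast cells and basophils, at 1433 CPM (1315 to 1559), while the 9 such cells of the CD169-DTR library had 380.3 CPM (258 to 540). T cells, taken as background for the ligands, had 94.3 and 102 CPM. Of these T cell Ccl2 UMIs, 269 of 386 (WT) and 125 of 164 (CD169-DTR) were in a T cell sub-cluster with myeloid genes, and the other T cell sub-clusters had 16.3 to 65.1 CPM.

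Ccl7 was led by macrophages. Its macrophage level was 316 CPM (308 to 324) in the WT and 311 CPM (300.1 to 322) in the CD169-DTR library, against 94.7 CPM (91.8 to 97.6) and 72.0 CPM (69.7 to 74.3) in microglia. On the log2 scale, macrophages exceeded microglia by 1.74 and 2.11, which made macrophages the holder of 55.4% of WT Ccl7 UMIs with 22.5% of the cells. In the CD169-DTR library, macrophages were 9.55% of the cells and held 42.5% of Ccl7 UMIs. B cells ranked next in the WT library at 183 CPM, but 92 of their 101 Ccl7 UMIs came from 1 cell.

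Ccl12 had the opposite distribution and was the most abundant of the ligands. Its microglial level was 2529.5 CPM (2515 to 2545) in the WT and 1939 CPM (1927 to 1951) in the CD169-DTR library, and its macrophage level 345 CPM (336 to 353) and 320.5 CPM (309 to 332). Microglia thus exceeded macrophages 7.34-fold and 6.05-fold, and they held 90.5% and 94.9% of all Ccl12 UMIs in cells. In the WT library the class next to microglia was B cells at 472 CPM (416 to 533), where 10 cells held 99.2% of the UMIs. In the CD169-DTR library it was macrophages, whose interval overlapped that of granulocytes at 309 CPM (274 to 347).

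Ccl8 was rare and sat in few cells. Its level was 39.96 CPM (37.1 to 43.0) in WT macrophages, 9.94 CPM (8.05 to 12.1) in CD169-DTR macrophages, and 5.30 and 2.05 CPM in microglia. Cells with at least 10 Ccl8 UMIs numbered 28 in the WT library, of which 21 were macrophages and 6 microglia, and they held 80.2% of its Ccl8 UMIs. In the CD169-DTR library 8 such cells, 4 macrophages and 3 microglia among them, held 64.7%. A single cell of the pericyte and fibroblast class held all 32 Ccl8 UMIs of that class in the CD169-DTR library, so that its level of 52.3 CPM describes 1 cell.

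Ccr2, the receptor, was found in other cells than Ccl12. In the WT library, cDC2 (type 2 conventional dendritic cells) had 377 CPM (365 to 390), NK cells 362 CPM (337 to 388) and macrophages 328 CPM (319 to 336). The intervals of cDC2 and NK cells overlapped, and macrophages lay below both. Over both libraries, cDC2 had 804 CPM of the monocyte gene Ly6c2 and 5002 CPM of 9 monocyte genes summed. Macrophages had 1409 and 6202 CPM, and cDC1 282 and 3483 CPM. Whether the cDC2 class holds cells derived from monocytes was not tested. In the CD169-DTR library cDC2 led with 389.9 CPM (367 to 413), followed by macrophages at 272 CPM (261 to 282) and NK cells at 259 CPM (222 to 302), whose intervals overlapped. T cells had 121 and 112 CPM, and cDC1 140.0 and 141 CPM. Microglia had 6.30 CPM (5.57 to 7.10) and 3.63 CPM (3.13 to 4.19), so that macrophages exceeded them by 5.70 and 6.22 on the log2 scale. Macrophages held 50.5% and 59.1% of Ccr2 UMIs, cDC2 30.1% and 25.4%, and NK cells 6.43% and 3.76%.

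**Figure D1:**
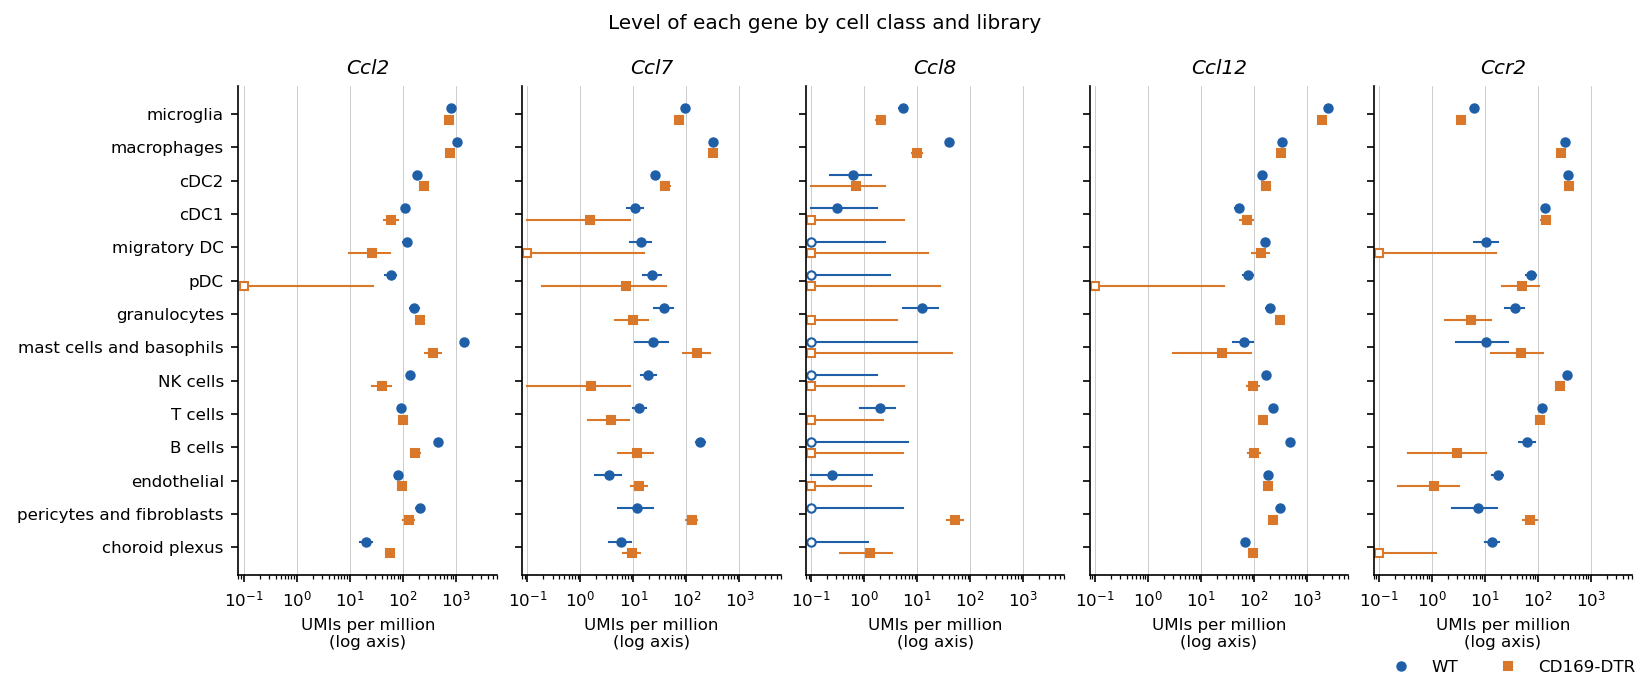
Level of Ccl2, Ccl7, Ccl8, Ccl12 and Ccr2 in CPM (log axis) by cell class, with circles for the WT and squares for the CD169-DTR library, bars for exact Poisson 95% intervals, and open symbols at the left edge for classes with 0 UMIs. Ccl12 is highest in microglia, Ccl7 in macrophages among the large classes, and Ccr2 in cDC2, NK cells and macrophages.

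**Figure D2:**
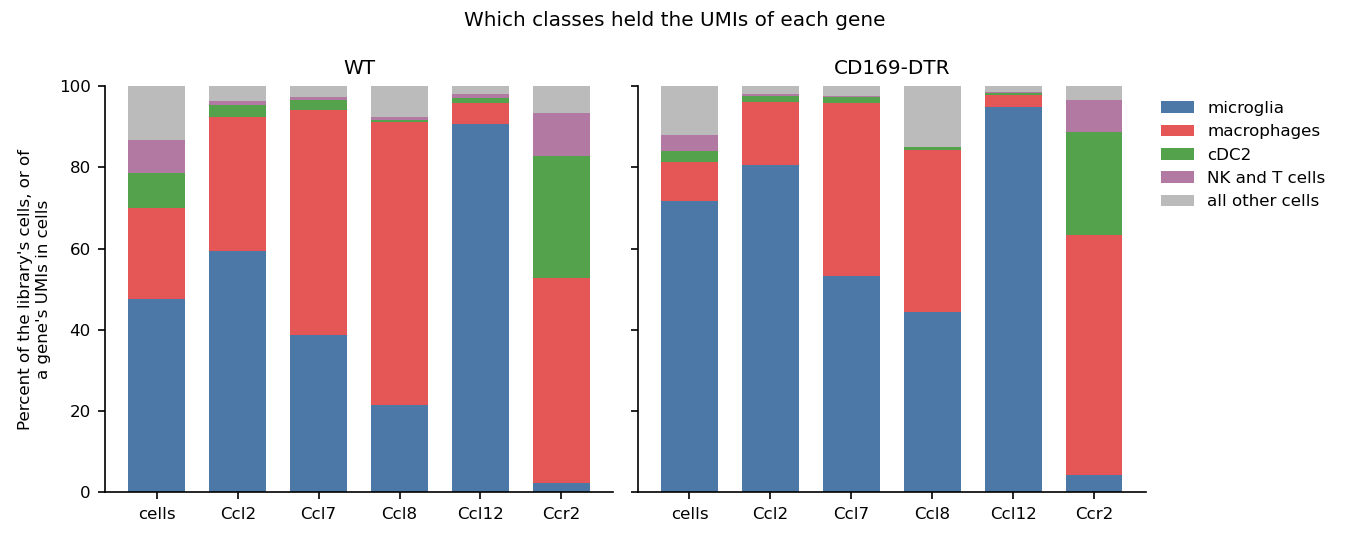
Percent of each library's cells, and of each gene's UMIs in cells, by class (stacked bars that sum to 100%). Microglia hold 90.5% and 94.9% of Ccl12 UMIs but 2.26% and 4.27% of Ccr2 UMIs.

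Set against the same contrast over all genes, 3 of the 5 genes (Ccl7, Ccl8 and Ccr2) were at least 2-fold higher in macrophages than in microglia in each library, where 11.9% (WT) and 9.31% (CD169-DTR) of genes with at least 20 UMIs were. Ccl12 was the gene at least 2-fold lower, as were 26.9% and 26.7% of genes, and Ccl2 was within 2-fold. Without the 10 cells richest in the gene, Ccl8 in the CD169-DTR library was 0.68 higher on the log2 scale and no longer 2-fold, and Ccl2 there was -0.24, so that its order between macrophages and microglia rests on those cells.

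Free RNA reached every droplet of these libraries and carried the ligands. Barcodes of 10 to 100 UMIs, which hold no cell, had 1086 and 1187 CPM of Ccl2, 161 and 148 CPM of Ccl7, 1734 and 1939 CPM of Ccl12, 8.42 and 6.98 CPM of Ccl8 and 129 and 58.4 CPM of Ccr2 (WT and CD169-DTR). Scaled by the microglial marker UMIs found in T, NK and B cells, free RNA would amount to 1719 UMIs per WT droplet and 834 per CD169-DTR droplet. That amount is an upper estimate, since doublets enter it and since it calls for more Ccr2 UMIs in WT microglia than were counted (394% of them). It likewise came to 699% of the Ccl7 UMIs of WT endothelial cells and 445% of the Ccl2 UMIs of WT choroid plexus cells. The true amount of free RNA is thus lower and was not measured. By the upper estimate, free RNA could supply 21.6% of the Ccl2, 10.8% of the Ccl7 and 106% of the Ccl12 of WT macrophages, and 9.35%, 2.98% and 37.9% of those of CD169-DTR macrophages. For microglial Ccl12 the share was 13.2% and 8.68%. The ratio of Ccl12 to Ccl2 UMIs was 1.60 and 1.63 in free RNA, 3.06 and 2.55 in microglia, 0.325 and 0.403 in macrophages, and 0.0444 and 0.0645 in mast cells and basophils, so the ligand mixture of these 3 classes differed from that of free RNA. In WT cDC2, the upper estimate of free RNA came to 90.8% of Ccl2 and 192% of Ccl12 UMIs but 5.43% of Ccr2 UMIs.

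Shares of cells with a UMI were compared after every cell was thinned to 2000 UMIs. In WT macrophages 50.8% of cells held Ccl2 (interval 48.6% to 52.9%), as did 38.4% of CD169-DTR macrophages (34.8% to 42.1%), and in 44.6% and 40.02% of microglia. The background in T cells was 8.81% and 9.91%. Before thinning, the macrophage shares were 66.4% and 60.7%, at median depths of 7221 and 11864.5 UMIs, and the T cell shares 21.4% and 19.7%, at 6494 and 6655 UMIs. Ccl12 was found in 70.5% of WT and 65.3% of CD169-DTR microglia, in 25.1% and 20.9% of macrophages and in 12.1% and 5.19% of T cells. Ccl7 was found in 17.6% and 14.2% of macrophages, in 8.89% and 6.16% of microglia, and in 1.54% of WT T cells. After thinning, CD169-DTR T cells with a Ccl7 UMI were 0 of 212 cells, which allows a share of up to 1.42% at 2000 UMIs by the limit of 3 counts (1.72% by the exact interval), and before thinning they were 2.29%. Ccr2 was found in 33.7% (31.7% to 35.8%) and 31.7% (28.3% to 35.3%) of macrophages, in 42.4% and 45.5% of cDC2, in 42.9% (37.2% to 48.7%) and 26.2% (17.2% to 36.9%) of NK cells, and in 14.8% and 15.1% of T cells, against a background of 1.00% and 0.765% in microglia. Ccl8 was found in 1.81% of the thinned WT macrophages, with an interval of 1.29% to 2.46%, and in 1.13% of the CD169-DTR ones, with an interval of 0.488% to 2.21%, so a difference in the share of Ccl8 cells was not detectable at this depth. Thinning left out 112 WT and 17 CD169-DTR macrophages and 122 and 92 microglia, which were shallower. Without thinning, Ccl12 was found in 85.3% and 84.3% of microglia and 43.8% and 48.8% of macrophages, and Ccl7 in 26.1% and 23.7% of macrophages and 17.7% and 13.7% of microglia. The unthinned shares of Ccr2 were 54.5% and 55.2% in macrophages, 72.7% and 83.3% in cDC2, 69.1% and 53.5% in NK cells, 30.02% and 23.9% in T cells and 3.65% and 2.53% in microglia, and those of Ccl8 in macrophages 2.77% and 2.34%.

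Within the microglia, levels differed between clusters by more than between libraries. Cluster 6, led by Il12b, Ifnb1 and Cxcl10 (genes of an antiviral and inflammatory response), was the highest for Ccl12, with 5842 CPM (5768 to 5917) in the WT and 5919 CPM (5835 to 6003) in the CD169-DTR library. It was also the highest for Ccl2, at 1608 and 1549.9 CPM, and for Ccl7, at 242 and 236 CPM. Cluster 7, led by Il1a, Atf3 and Tnf, came next for Ccl2 with 1546.5 and 1330.3 CPM, but for Ccl12 had only 1609 and 1478 CPM. The dividing cells of cluster 8, led by Mki67 and Top2a, had 4097 and 2736 CPM of Ccl12. At the other end stood cluster 0, where P2ry12, a marker of resting microglia, was highest. It had 550.4 and 551 CPM of Ccl12, 266 and 369.7 CPM of Ccl2, and 14.3 and 37.2 CPM of Ccl7, and hemoglobin RNA was also among its leading genes. Cluster 2, led by Cst7, Lpl and Spp1 (genes of disease-associated microglia), held 177 of the 228 Ccl8 UMIs of WT microglia and had intermediate Ccl2, at 696 and 723 CPM. Ccr2 stayed between 1.55 and 10.9 CPM in all 8 microglial clusters of both libraries.

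Macrophages fell into 8 sub-clusters, in which ligands and receptor were distributed differently. Sub-cluster 4, led by the monocyte genes Hp, F13a1 and Fn1, had the highest Ccr2, at 872 CPM (828 to 917) in the WT and 939 CPM (869 to 1012) in the CD169-DTR library. Its Ccl7 was 56.6 and 37.6 CPM, and none of its 157 WT and 62 CD169-DTR cells held a Ccl8 UMI, with upper limits of 2.17 and 5.13 CPM. Sub-cluster 1, led by the interferon-gamma-responsive genes Cxcl9 and Gbp2, had 460.2 and 610.0 CPM of Ccr2 and 1078 and 1492 CPM of Ccl2. Its WT over CD169-DTR ratio was -0.47 for Ccl2 and -1.65 for Ccl7 on the log2 scale, and 0.23 and 0.58 without the 10 richest cells of each library. Those 10 cells weigh more among 134 CD169-DTR than among 633 WT cells, with 53.2% against 16.9% of the Ccl2 and 89.2% against 45.7% of the Ccl7 UMIs. Sub-cluster 0, led by Slfn4, was the highest for WT Ccl2 and Ccl7, with 1836 CPM (1784 to 1888) and 677 CPM (646 to 709), against 1369 and 305 CPM in the CD169-DTR library. Gm26917 and Lars2, whose RNA is often high in cells of low RNA quality, were also among its leading genes. This sub-cluster was shallow, with medians of 3406 and 5345.5 UMIs per cell, and made up 30.7% of WT but 11.02% of CD169-DTR macrophages. Sub-cluster 2, led by Mmp12, Pf4 and Spp1, had lower Ccr2, at 99.6 and 118 CPM, and the highest Ccl8, at 124 and 26.8 CPM, with 472 and 569 CPM of Ccl7. Sub-cluster 3, led by the neutrophil chemokines Cxcl2 and Cxcl1, was next for Ccl8, at 92.0 and 21.5 CPM. Sub-cluster 5, led by Ear2, Treml4 and hemoglobin RNA, and sub-cluster 6, led by Itgax, Apoe and Gpx3, had 98.0 to 252 CPM of Ccl2 and at most 42.2 CPM of Ccl7. Sub-cluster 7 carried microglial genes (P2ry12, Sparc) and 1183 and 1217 CPM of Ccl12. Without it, Ccl12 in macrophages was 3.30 (WT) and 2.92 (CD169-DTR) lower than in microglia on the log2 scale.

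**Figure D3:**
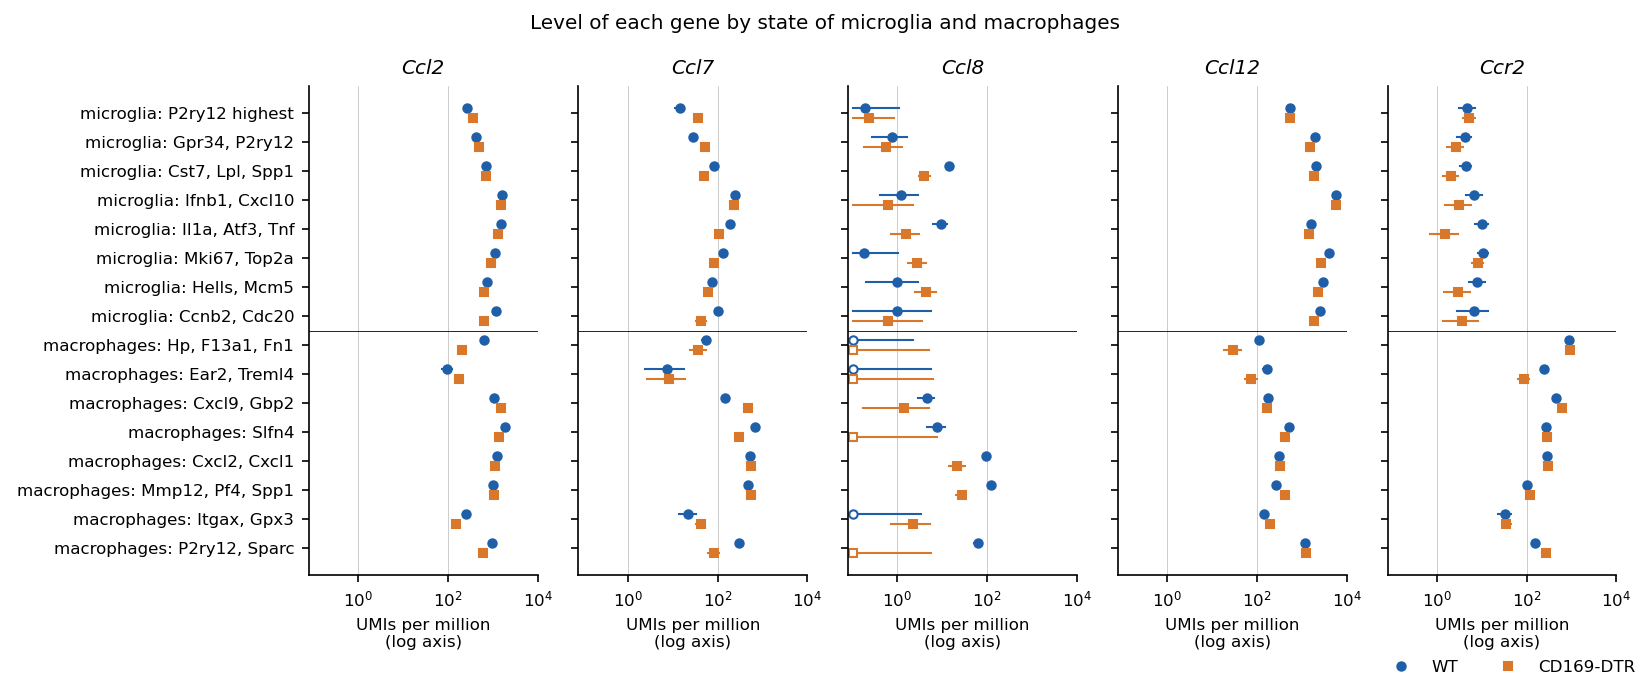
Level of the 5 genes in CPM (log axis) in 8 microglial clusters and 8 macrophage sub-clusters, named by leading genes, with circles for WT, squares for CD169-DTR, bars for exact Poisson 95% intervals and open symbols for 0 UMIs. Ccr2 is highest in the Hp, F13a1, Fn1 sub-cluster (872 and 939 CPM) and Ccl12 in the Ifnb1, Cxcl10 cluster (5842 and 5919 CPM).

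Macrophages rich in Ccl8 were described further. Of the 21 WT and 4 CD169-DTR macrophages with at least 10 Ccl8 UMIs, 17 and 4 were in sub-clusters 2 and 3. Their summed level of 9 markers of border-associated macrophages, the resident macrophages of meninges and vessels, was 957 CPM against 348 CPM in the other WT macrophages, and 2178 against 412 CPM in the CD169-DTR library. Most of this was Pf4, at 461 against 77.7 CPM and 1643 against 105 CPM, and Stab1. Cbr2 was also higher, at 100 against 6.38 CPM and 115 against 9.16 CPM, and Mrc1, at 21.4 against 15.7 CPM and 57.3 against 25.1 CPM. F13a1 was lower, at 35.7 against 98.5 CPM and 76.4 against 133 CPM. Folr2 was higher in the WT (10.7 against 1.32 CPM) and lower in the CD169-DTR library (0 against 5.20 CPM). Lyve1 and Cd163, which define resident border cells, were at 0 in these macrophages. In the other macrophages Lyve1 was also at 0 and Cd163 at 0.440 and 1.66 CPM, so these zeros do not set the cells apart. These WT cells had 889.6 CPM of Ccl7 against 307 CPM in other WT macrophages, and 78.6 against 331 CPM of Ccr2. WT sub-clusters 2 and 3 as a whole had 472 and 518 CPM of Ccl7 and 99.6 and 284 CPM of Ccr2. Over both libraries, these sub-clusters had 702 and 310 CPM of the 9 border-associated markers, and sub-cluster 4 had 664 CPM. The contrasts above are with all other macrophages, and other cells of the same sub-clusters were not compared. The Ccl8-rich cells were chosen by their Ccl8 count, so their Ccl8 level is no result. In the microglial class, cells with at least 10 Ccl8 UMIs were 3 in the CD169-DTR library, with summed levels of 162 CPM of Lyve1, 122 CPM of Cd163 and 791 CPM of Mrc1. In the 6 such cells of the WT library Lyve1 was at 0, Cd163 at 19.6 CPM and Mrc1 at 88.3 CPM.

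Among T cells, Ccr2 was uneven. The sub-cluster led by Il17a, Blk and Tcrg-C1, genes of gamma-delta T cells that make IL-17, held 32 WT and 11 CD169-DTR cells and had 482 CPM (393 to 584) in the WT and 552 CPM (396 to 748) in the CD169-DTR library. The sub-cluster led by Il5, Il13, Il1rl1 and Areg, which also had 223 CPM of Foxp3, followed with 192 and 203 CPM. Il1rl1 and Areg were markers of innate lymphoid cells (ILC2) and Foxp3 of regulatory T cells. This level may therefore mix both and is not that of 1 T cell subset. The Cd8a and Gzmk sub-cluster had 75.5 and 196 CPM. The sub-cluster led by Lef1 and Tcf7, genes of naive T cells, had 57.9 and 3.26 CPM, the latter from 1 UMI. Another sub-cluster of 47 WT and 9 CD169-DTR cells had myeloid genes (Spp1, Tgfbi, Apoe) among its leading genes and 142 and 27.5 CPM of Ccr2. It held 105 of the 497 WT and 4 of the 179 CD169-DTR T cell Ccr2 UMIs, and 649 of 923 and 209 of 241 Ccl12 UMIs.

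The design compares WT with CD169-DTR tumors. In macrophages, Ccl2 was 1.33-fold higher in the WT library (log2 ratio 0.41, interval 0.38 to 0.45) and Ccr2 1.21-fold higher (0.27, 0.20 to 0.34). Ccl7 (0.02, -0.04 to 0.09) and Ccl12 (0.10, 0.04 to 0.17) were close to equal. Ccl8 was 4.02-fold higher in WT (2.01, 1.70 to 2.33), the member past 2-fold. Over the 11756 genes that had 20 or more UMIs in this class, 3.71% were at least 2-fold higher and 1.57% at least 2-fold lower in WT, and the median of all genes was -0.04. The spread of counts was uneven, since the 10 richest cells held 92.7% of Ccl8 and 48.6% of Ccl7 UMIs of CD169-DTR macrophages, with 322 Ccl7 UMIs in 1 cell. Without the 10 richest cells of each library, which are 0.44% of WT and 1.38% of CD169-DTR macrophages, the ratios were 0.69 for Ccl2, 0.67 for Ccl7, 4.54 for Ccl8, 0.47 for Ccl12 and 0.35 for Ccr2. Without the richest 1% of cells they were 0.54, 0.35, 2.15, 0.22 and 0.25. With every sub-cluster given the same weight in both libraries, Ccl2 was 0.09 and Ccr2 -0.19, and sub-cluster 0 made up a larger share of the WT macrophages, as given above.

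In microglia, all 5 genes were higher in the WT library by summed UMIs, where the median log2 ratio of 13763 genes was -0.04. The share of all genes that were higher by any amount was not counted. The log2 ratio was 0.12 (0.10 to 0.15) for Ccl2, 0.40 (0.33 to 0.46) for Ccl7, 0.38 (0.37 to 0.40) for Ccl12 and 0.80 (0.52 to 1.07) for Ccr2. The Ccr2 UMIs in microglia were fewer than the upper estimate of free RNA would supply. Ccl8 was 2.59-fold higher in WT (1.37, 1.04 to 1.72), again the member past 2-fold, where 1.36% of 13763 genes were at least 2-fold higher and 1.47% lower. The clusters did not share these directions. Ccl2 and Ccl7 were lower in WT in cluster 0 (-0.47 and -1.38) and cluster 1 (-0.17 and -0.92), near 0 in cluster 6 (0.05 and 0.03) and higher in the dividing cells of cluster 16 (0.90 and 1.29, the latter 2.70 without the 10 richest cells of each library). Ccl12 was -0.0025 in cluster 0, -0.02 in cluster 6 and 0.58 (0.56 to 0.61) in cluster 8.

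By summed UMIs over the whole class, Ccr2 in cDC2, T cells and NK cells differed by less than 2-fold between the libraries. Within T cells, the Cd8a and Gzmk sub-cluster was lower in WT (75.5 against 196 CPM). The Lef1 and Tcf7 sub-cluster was higher (57.9 against 3.26 CPM, the latter from 1 UMI). The log2 ratio was -0.05 (-0.14 to 0.05) in cDC2, 0.12 (-0.13 to 0.38) in T cells and 0.48 (0.24 to 0.73) in NK cells, of which the CD169-DTR library had 86. Without the 10 richest cells these ratios were 0.10, 0.67 and 1.00. Leaving out 10 cells weighs more in the smaller CD169-DTR classes. Those cells held 47.9% of the Ccr2 UMIs of the 86 CD169-DTR and 15.7% of those of the 330 WT NK cells. In T cells they held 48.0% (CD169-DTR) and 24.3% (WT), and in cDC2 21.4% and 8.32%. The macrophages, as the largest holder of Ccr2 UMIs, were 24.04% of immune cells in the WT and 10.3% in the CD169-DTR library. Over all cells, Ccr2 stood at 127 CPM in WT and 57.0 CPM in CD169-DTR, Ccl8 at 11.3 and 3.09 CPM, Ccl7 at 112 and 90.7 CPM, Ccl2 at 636 and 632 CPM and Ccl12 at 1277 and 1369 CPM.

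**Figure D4:**
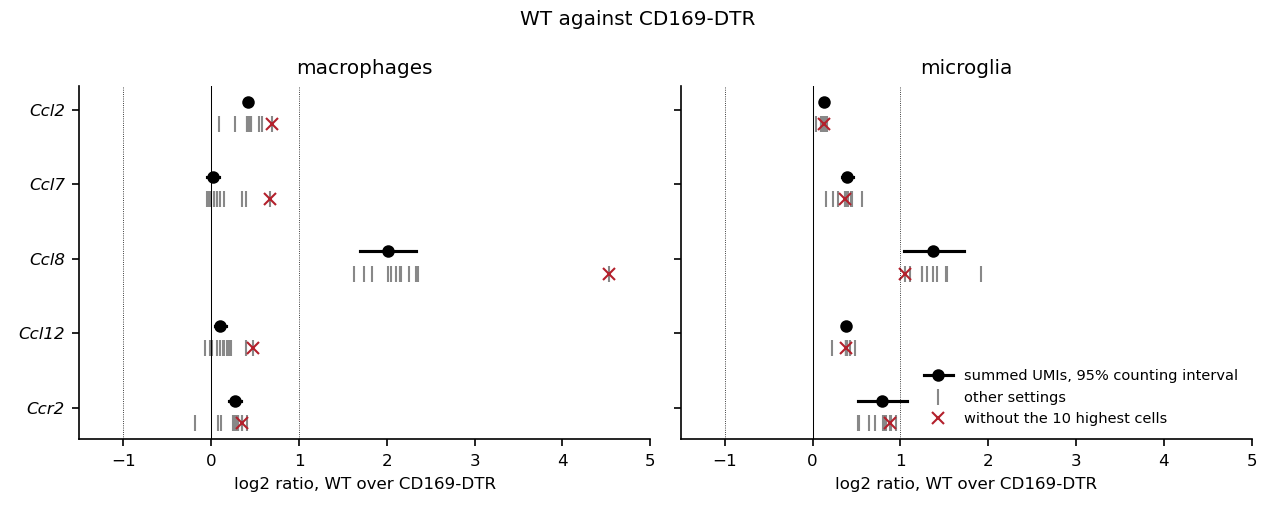
Log2 ratio of WT over CD169-DTR in macrophages and microglia, with circles and bars for summed UMIs and their exact conditional 95% intervals, ticks for other settings, crosses for values without the 10 richest cells, and dotted lines at 2-fold. Only Ccl8 lies past 2-fold in either class, and in macrophages its value moves from 2.01 to 4.54 without 10 cells.

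Among cells with a Ccl2 UMI, larger shares held Ccl7 and Ccl12 than among cells without. Among WT macrophages with a Ccl2 UMI after thinning, 28.3% held Ccl7, against 6.49% of those without, and in the CD169-DTR library the shares were 30.5% and 4.12%. In microglia they were 15.7% against 3.43% and 11.3% against 2.74%. Ccl12 was found in 34.7% of WT macrophages with Ccl2 and in 15.1% of those without. The same contrast stood in T cells, at 27.5% against 10.6% in the WT and 19.0% (of 21 cells) against 3.66% in the CD169-DTR library. The T cell sub-cluster with myeloid genes held 269 of 386 Ccl2 and 649 of 923 Ccl12 UMIs of WT T cells. The T cell contrast is therefore no clean measure of free RNA. By the upper estimate, which is too high, free RNA could supply 106% of WT macrophage Ccl12. How much of it free RNA did supply is unknown, so the Ccl12 shares in macrophages do not show that these cells made both. For Ccl7, WT T cells had 2.50% (1 of 40 cells) with Ccl2 and 1.45% without. Before thinning, the median depths of cells with and without Ccl2 were 6748 and 8255 UMIs in WT macrophages and 8824.5 and 6795 in WT microglia. No ligand was found in 39.2% of WT and 51.9% of CD169-DTR macrophages, and in 21.4% and 25.6% of microglia, whereas 3 or 4 ligands were found in 7.60% and 0.324% of WT macrophages. Receptor and ligands were not exclusive. WT macrophages with Ccr2 held Ccl2 in 52.2% of cells, against 50.0% of those without, and CD169-DTR macrophages in 37.8% against 38.6%. Ccl7 was found in 15.1% of WT macrophages with Ccr2 and 18.8% of those without, and Ccl8 in 0.687% and 2.38%.

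CD169 itself divided the ligands differently by class. In WT macrophages, cells with a Siglec1 UMI (516) and without (1643) had 1225 and 1237 CPM of Ccl2, a log2 ratio of -0.01 (-0.11 to 0.08), and 324 and 337 CPM of Ccr2 (-0.06, -0.24 to 0.12). Ccl12 was higher in those with Siglec1, at 516 against 304 CPM (0.77, 0.61 to 0.92). The Ccl12 ratio was 0.17 (-0.27 to 0.59) in CD169-DTR macrophages. The upper estimate of free RNA came to 106% of the Ccl12 UMIs of WT macrophages. Macrophage sub-cluster 7, with microglial genes, had 1183 CPM of Ccl12 in the WT library. In CD169-DTR macrophages, the 94 cells that still had a Siglec1 UMI had 1335 against 796 CPM of Ccl2 (0.75, 0.54 to 0.95) and 606 against 268 CPM of Ccl7 (1.18, 0.86 to 1.49). In WT macrophages Ccl7 was 339 against 388 CPM (-0.19, -0.37 to -0.02) and Ccl8 29.1 against 38.0 CPM (-0.39, -1.01 to 0.20). Microglia with Siglec1 had more of every ligand in both libraries. In WT microglia the ratios were 0.69 for Ccl2, 1.43 for Ccl7, 1.97 for Ccl8 and 0.66 for Ccl12, and in CD169-DTR microglia 0.56, 1.499, 3.79 and 0.74. The Ccl8 ratios rest on 21 against 35 UMIs in the WT (1.11 to 2.79) and 8 against 12 in the CD169-DTR library (2.29 to 5.20). Siglec1 in microglia, over both libraries, ranged from 2.23 CPM in cluster 0 to 33.9 CPM in cluster 6. Cluster 6 was also the highest for Ccl2, Ccl7 and Ccl12, and whether the split follows the clusters was not tested. Cells with a Siglec1 UMI were deeper (medians of 10901.5 against 7308 UMIs in WT microglia and 16404 against 11673 in CD169-DTR macrophages), and levels here are from cells thinned to 2000 UMIs.

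**Figure D5:**
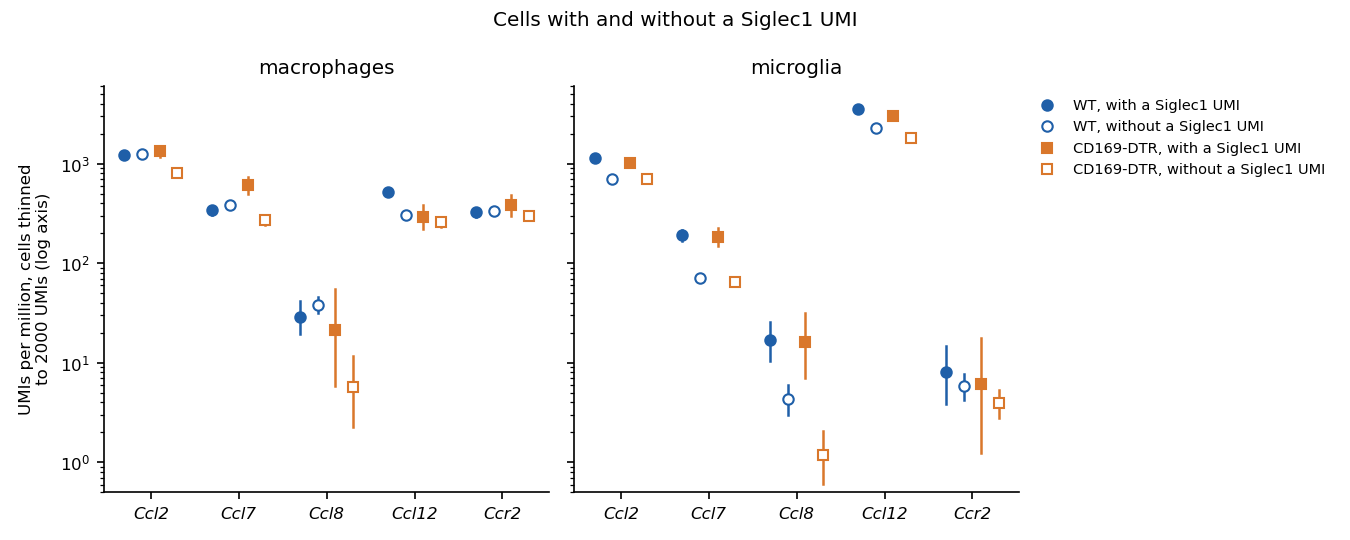
Level of the 5 genes in CPM (log axis) in macrophages and microglia with (filled) and without (open) a Siglec1 UMI, after thinning to 2000 UMIs, with exact Poisson 95% intervals. In microglia all 4 ligands are higher in cells with Siglec1 in both libraries, while Ccl2 in WT macrophages is 1225 and 1237 CPM.

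Other genes of the system were read from fixed lists. Among other receptors of these ligands, Ccr1, which also binds CCL7, had 107 and 133 CPM in macrophages. Ccr8, the receptor of mouse CCL8, had 0 and 0.0191 CPM in microglia and no UMI in macrophages. Ccrl2, a decoy-like receptor that does not signal, had 376 and 266 CPM in macrophages (log2 ratio 0.50). The neighbours Ccl1 and Ccl11 did not reach 20 UMIs in microglia or macrophages. Neither Ccr1 nor Ccrl2 was past 2-fold between the libraries in macrophages or in microglia. Of 8 genes of CCR2 signalling, none was past 2-fold between the libraries, with medians of -0.19 in macrophages and -0.09 in microglia. Of 11 NF-kB and AP-1 inducible genes, Cxcl1 was at least 2-fold lower in WT in macrophages (11.3 against 66.3 CPM) and in microglia (0.279 against 1.15 CPM), and the medians were 0.17 and -0.33. Of 8 interferon-response genes, 7 were at least 2-fold higher in WT macrophages, with a median of 1.55, and all 8 were higher but none past 2-fold in WT microglia, with a median of 0.65. Among the monocyte genes, Ly6c2 (1.35), Plac8 (1.15) and Ms4a4c (1.25) were at least 2-fold higher in WT macrophages on the log2 scale, while Fn1 was -0.43 and Chil3 -0.82. In microglia, Ly6c2, Ms4a4c and F10 were at least 2-fold higher and Hp, Fn1 and Chil3 at least 2-fold lower in WT, at low levels such as 20.7 against 6.04 CPM of Ly6c2. Not every gene of the monocyte list and of the list of other monocyte traffic genes is reported here, so the genes named are not a full tally. In the latter list, Cx3cr1, the fractalkine receptor, was -0.21 in macrophages and -0.15 in microglia, and Cxcr4, the receptor of CXCL12, was 0.37 and 0.74.

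The genes whose pattern was most like each member were ranked by Pearson's r of log2(CPM + 1) over 23 class-by-library sums, among 11776 genes. For Ccl2 they included Adgre1 (0.90), Ctss, Tmem104 and P2ry6, for Ccl7 Cfb (0.87), Bach2os, Apobec1, Cebpa and Ctsb, and for Ccl8 Igf1 (0.78), Gpx3, Dot1l, Hmox1 and AU022793. For Ccl12 they were Gpr84 (0.94), Abhd12, C1qc, Fcrls and Trem2, and for Ccr2 Runx3 (0.83), Mrpl30, Mrpl52, Akr1c13 and Gbp8. Between the members, r was 0.81 for Ccl2 and Ccl7, 0.78 for Ccl2 and Ccl12, 0.71 for Ccl7 and Ccl8 and -0.20 for Ccl12 and Ccr2. The points of 1 library share its free RNA and its depth, so these values are a description. Ranked by Spearman's rho, 3 of the 5 genes stayed for Ccl7 and 2 of 5 for each other member.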

How the data were processed

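The authors deposited raw UMI counts per gene and barcode of 2 droplet libraries, made with Cell Ranger (3.1.0 in the file header, build mm10), without normalization; the matrices hold 101808996 (WT) and 84065489 (CD169-DTR) UMIs. A barcode was kept as a cell from 1000 UMIs upwards, unless mitochondrial genes took over 17% of them. Counts were log-normalized to 10000, integrated on 50 dimensions from 2000 variable genes without 63 chemokine and receptor genes, and clustered on 30 dimensions at resolution 1 (Seurat 5.3.0, R 4.3.3). Macrophages and T cells were clustered again at resolution 0.5. A class name needed 3 markers of a list. Doublets were not removed. Levels and intervals were computed in Python 3.11.15 with scipy 1.17.1, numpy 2.4.6 and pandas 2.3.3, doublet scores with Scrublet in scanpy 1.11.5, and plots with matplotlib 3.10.9. With 1 library per group no test was made, and intervals are at 95%. Likeness used genes with at least 200 UMIs and classes of at least 50 cells. Thinning and intervals were tested on simulated counts that were not gathered in few cells, as some counts were here. How well the intervals cover such gathered counts was not tested. Named genes are the 5 members, the fixed lists, the 5 genes most like each member, Siglec1 and leading genes of clusters. The members and lists were chosen with earlier results of these data known. Alternatives concerned scaling, weights of cells and clusters, the richest cells, free RNA, doublets, filters, integration, resolution and the chemokine genes, and 5 were added after the data were seen. Some genes that the rules select are not reported here.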

Additional observations from a re-analysis of the deposited data

Results flagged for a closer look

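With 1 library per group, no sample could be set against others of its group. Some log2 ratios of WT over CD169-DTR had opposite signs in different cell classes or clusters, and none of these differences between ratios was tested. Between classes, Ccl2 was 0.41 in macrophages and -0.40 in cDC2, Ccl7 0.40 in microglia and -0.64 in cDC2, and Ccl12 0.38 in microglia and -0.26 in cDC2. In WT cDC2, the upper estimate of free RNA, which is too high, came to 90.8% of the Ccl2, 99.1% of the Ccl7 and 192% of the Ccl12 UMIs. Without the 10 richest cells the cDC2 ratios were 0.14, -0.27 and 0.48. Between microglial clusters, Ccl2 was 0.90 in dividing cluster 16 and -0.47 in P2ry12-rich cluster 0, and Ccl7 was 1.29 and -1.38. Ccl8 was 2.55 in cluster 7, led by Il1a and Tnf, from 34 WT UMIs, 25 of them in 1 cell, against 9. It was -3.95 in dividing cluster 8, where the WT library held 1 Ccl8 UMI and the CD169-DTR library 20. Between macrophage clusters, Ccl2 was 0.73 in cluster 3, led by Gpnmb and Pf4, and -0.14 in cluster 4, led by Clec4e and F10. Ccr2 was 0.57 in cluster 3 and -0.20 in cluster 4. Ccl7 was 0.59 in cluster 3 and -1.06 in cluster 14, led by Ear2 and Adgre4, from 17 WT against 27 CD169-DTR UMIs.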

How the results depend on the processing

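No paired analysis was possible because each group was 1 library, and there was no replicate block to fit and no library to leave out. All values are log2 ratios, first of WT over CD169-DTR and then, where given, of macrophages over microglia. Over the whole macrophage and microglial classes, ratios kept their sign under the settings below except Ccl7, Ccl12 and Ccr2 of WT over CD169-DTR in macrophages and Ccl2 of macrophages over microglia in the CD169-DTR library, and the cause of a moved value was not tested. Over these whole classes, the ratio that crossed 2-fold was Ccl8 of macrophages over microglia in the CD169-DTR library. Smaller groups moved more without the 10 richest cells, where in cDC2 Ccl2 went from -0.40 to 0.14, Ccl12 from -0.26 to 0.48 and Ccr2 from -0.05 to 0.10, and in macrophage sub-cluster 1 Ccl2 went from -0.47 to 0.23 and Ccl7 from -1.65 to 0.58.

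With median-ratio scaling, Ccl2 was 0.46 in macrophages and 0.17 in microglia, and Ccl12 was 0.43 in microglia. With equal weight per cell, the macrophage ratios were 0.58 for Ccl2, 0.40 for Ccl7, 1.63 for Ccl8, 0.40 for Ccl12 and 0.11 for Ccr2, and the microglial ratios 0.10 for Ccl2, 0.23 for Ccl7, 0.40 for Ccl12 and 0.52 for Ccr2. With equal weights per cluster, Ccl2 was 0.27, Ccl12 0.21 and Ccr2 0.076 in macrophages, and Ccl2 0.034, Ccl7 0.16 and Ccl12 0.23 in microglia. With equal weights per macrophage sub-cluster (added after the data were seen), Ccl2 was 0.086, Ccl8 2.36 and Ccr2 -0.19.

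Without the 10 richest cells, the macrophage ratios were 0.69 for Ccl2, 0.67 for Ccl7, 4.54 for Ccl8, 0.47 for Ccl12 and 0.35 for Ccr2. Macrophages over microglia were then 0.32 for Ccl2, 4.16 for Ccl8, -3.00 for Ccl12 and 6.07 for Ccr2 in the WT library, and -0.24 for Ccl2, 1.41 for Ccl7, 0.68 for Ccl8, -3.09 for Ccl12 and 6.61 for Ccr2 in the CD169-DTR library. Without the richest 1% of cells (added), Ccl2 was 0.54, Ccl7 0.35 and Ccl12 0.22 in macrophages, and 0.15, 0.56 and 0.40 in microglia. Macrophages over microglia were then 1.89 for Ccl7, -3.06 for Ccl12 and 6.64 for Ccr2 in the WT library, and -0.042 for Ccl2, -2.89 for Ccl12 and 7.28 for Ccr2 in the CD169-DTR library.

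With free RNA subtracted at its upper estimate, Ccl2 was 0.45, Ccl7 0.15 and Ccr2 0.41 in macrophages, and Ccl2 0.093, Ccl7 0.28 and Ccl12 0.49 in microglia. Macrophages over microglia were then 0.46 for Ccl2, 2.18 for Ccl7 and 3.41 for Ccl8 in the WT library, and 2.31 for Ccl7 and -3.19 for Ccl12 in the CD169-DTR library. No value was left for Ccl12 in WT macrophages or Ccr2 in microglia, and none for Ccl8 in microglia without 1% of cells. The default threshold of Scrublet called 299 WT cells and 1 CD169-DTR cell doublets. Without the 8% of cells of highest doublet score in each library, whether called or not, Ccl7 was 0.10 and Ccl12 -0.065 in macrophages. Macrophages over microglia were then 0.43 for Ccl2, 1.80 for Ccl7, 3.23 for Ccl8, -3.38 for Ccl12 and 6.17 for Ccr2 in the WT library, and 0.12 for Ccl2, -2.92 for Ccl12 and 6.50 for Ccr2 in the CD169-DTR library. Without the macrophage sub-cluster with microglial genes (added), Ccl7 was -0.043, Ccl12 0.0077 and Ccr2 0.35 in macrophages, and macrophages over microglia were -3.30 for Ccl12 in the WT library and 2.19 for Ccl7 and -2.92 for Ccl12 in the CD169-DTR library.

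With the libraries merged without integration, Ccl12 in macrophages was 0.18, and macrophages over microglia were -2.80 for Ccl12 in the WT and 5.97 for Ccr2 in the CD169-DTR library. With chemokine genes kept for clustering, Ccl12 was -0.016 in macrophages and Ccl8 1.92 in microglia. Among genes with at least 100 UMIs, 2.30% in macrophages and 0.534% in microglia were at least 2-fold higher in WT and 0.492% and 0.301% lower, and with at least 1 UMI in each library 6.08% and 4.67% were higher and 4.30% and 5.04% lower. Thinning to other depths moved 68 shares and left 32 within their spread.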
